A study of Mus musculus with 33 samples.

Results

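Colon regulatory T cells (Treg) that carried TSLPR but not ST2 (TSLPR+ST2-) were compared with those that carried ST2 but not TSLPR (TSLPR-ST2+), in mice with colitis-associated cancer. The libraries were chosen by their titles, and they are 4 of TSLPR+ST2- and 4 of TSLPR-ST2+ cells, 8 of the 33 libraries of the series. Each pair came from 1 animal, cancer mice 5 to 8, so that the mouse is the replicate. All mice were Foxp3-yfp B6, in which a yellow fluorescent protein made from the Foxp3 locus marks Treg, and were stated to be 7 to 12 weeks old. Cancer mice had 1 injection of azoxymethane (AOM, 10 mg/kg), a carcinogen, and 3 cycles of dextran sodium sulfate (DSS) in drinking water for 7 days each, which injures the colon lining, and were taken 2 weeks after the last. Naive mice 1 to 4 are given beside them. No group had AOM or DSS alone, so tumours, recent colitis and the chemicals cannot be told apart. Each library holds 200 cells from a sort on CD45, TCR, CD4 and Foxp3, and whole colon tissue was digested, so cells in and outside tumours were not separated. Here "the 2 single-positive gates" means TSLPR+ST2- and TSLPR-ST2+, and the other gates of the same mice are TSLPR+ST2+ (double-positive) and TSLPR-ST2- (double-negative).

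TSLPR, encoded by Crlf2, pairs with the interleukin-7 receptor chain Il7r to bind the epithelial cytokine TSLP and signals through JAK kinases and STAT5. ST2, encoded by Il1rl1, pairs with Il1rap to bind interleukin-33, an alarmin released by damaged epithelium, and signals through Myd88. In the gut, ST2 is known from Treg that also use Gata3.

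Itgb1, the integrin beta 1 chain, had the smallest adjusted p between the 2 gates and was lower in TSLPR+ST2- Treg. With it Klf2, a transcription factor of resting and circulating T cells, and S1pr1, the receptor that lets T cells leave tissue towards blood and lymph, were lower, as was Itgb7, the integrin beta 7 chain of gut homing. Higher in TSLPR+ST2- Treg were Capg, an actin-capping protein, Izumo1r, the folate receptor 4 of Treg, and Ctla4, the inhibitory receptor. In all, 30 of 14861 genes tested passed an adjusted p of 0.05 in edgeR's quasi-likelihood test with the mouse as a block (0.202%), 12 higher in TSLPR+ST2- (0.0807%) and 18 lower (0.121%). The median log2 fold change of all genes was 0.04, with 7857 of 14861 values positive, and 1698 had an unadjusted p under 0.05, the background for the list counts given below. The number of calls rests on the setting. It was 955 of 14861 genes in DESeq2 (503 higher, 452 lower), which called all 30 among them. In limma-voom it was 67 of 14861 (33 higher, 34 lower). These are the backgrounds for the list counts of those tools. The number was 0 when edgeR was given the 8 libraries alone, where 872 of 11884 genes had an unadjusted p under 0.05. It was 11, 167, 11 and 3 in edgeR without mice 5, 6, 7 and 8, and only Itgb1, Klf2 and Capg kept the call whichever of these 4 mice was left out.

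**Figure D1:**
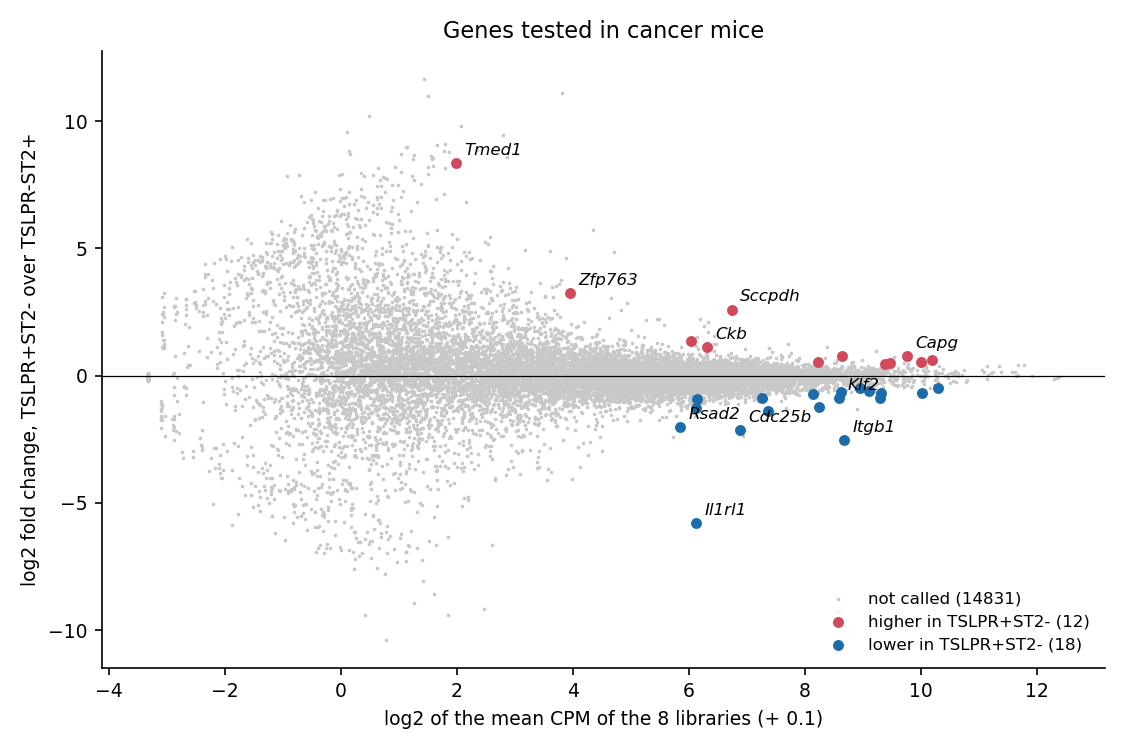
Log2 fold change of TSLPR+ST2- over TSLPR-ST2+ Treg of cancer mice (y axis) against the log2 of the mean CPM of the 8 libraries plus 0.1 (x axis), 1 point for each of 14861 genes. Red points are the 12 genes called higher in TSLPR+ST2-, blue points the 18 called lower, and grey points the genes not called, which spread widely at low CPM.

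Levels are counts per 1000000 (CPM), scaled by edgeR's TMM factors, and are listed for mice 5, 6, 7 and 8 in that order. Il1rl1 followed the sort: it had 1.33, 11, 0 and 0.155 CPM in TSLPR+ST2- libraries, against 165, 103, 180 and 95.6 CPM in TSLPR-ST2+ libraries. The mouse 6 TSLPR+ST2- library stood above the other 3, and no libraries of the 2 gates overlapped. The difference was 55.4-fold (log2 fold change -5.79, SE 0.95, edgeR adjusted p = 0.0066). Crlf2 had 40.6, 37.6, 37.3 and 32.6 CPM in TSLPR+ST2- libraries, against 30.5, 13.6, 19.8 and 21.8 CPM in TSLPR-ST2+ libraries. Here too the gates did not overlap, but the gap was narrow and the test was not passed (log2 fold change 0.80, SE 0.29, edgeR adjusted p = 0.26). The mouse 5 TSLPR-ST2+ library, at 30.5 CPM, was above the 25.2 CPM of the double-positive library of that mouse. In naive mice Crlf2 was called, with 36.2 to 45.5 CPM in TSLPR+ST2- and 12.8 to 19.0 CPM in TSLPR-ST2+ libraries (2.50-fold, edgeR adjusted p = 0.0254). Foxp3, the factor that defines Treg, had 136, 163, 62.2 and 131 CPM in TSLPR+ST2- libraries, against 105, 99.6, 106 and 110 CPM in TSLPR-ST2+ libraries. These ranges overlapped and the test was not passed (log2 fold change 0.20, SE 0.20, edgeR adjusted p = 0.761).

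Itgb1 (chr8:128685654-128733200, + strand, GRCm38) encodes the beta chain shared by the receptors for fibronectin, collagen and laminin. It had 98.4, 144, 164 and 64.9 CPM in TSLPR+ST2- libraries, against 626, 475, 913 and 796 CPM in TSLPR-ST2+ libraries. Every TSLPR+ST2- library was far below every TSLPR-ST2+ library, with means of 118 ± 44.7 and 703 ± 192 CPM (SD, n = 4 each). The gene was 5.79-fold lower in TSLPR+ST2- (log2 fold change -2.53, SE 0.27, edgeR adjusted p = 4.82e-05). Itgb7 (chr15:102215995-102231944, - strand), whose product pairs with integrin alpha 4 or alpha E for gut homing and retention, had 822, 845, 762 and 741 CPM in TSLPR+ST2- libraries. In TSLPR-ST2+ libraries it had 1421, 1000, 1085 and 1629 CPM, so that the gates again did not overlap. It was 1.61-fold lower in TSLPR+ST2- (log2 fold change -0.68, SE 0.13, edgeR adjusted p = 0.0266), and the call was lost without any one of mice 1, 2, 4, 5, 7 and 8.

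Klf2 (chr8:72319033-72321656, + strand) had 295, 279, 304 and 208 CPM in TSLPR+ST2- libraries, against 480, 418, 480 and 611 CPM in TSLPR-ST2+ libraries. The highest TSLPR+ST2- library was below the lowest TSLPR-ST2+ library, and the difference was 1.84-fold (log2 fold change -0.88, SE 0.12, edgeR adjusted p = 0.00117). S1pr1 (chr3:115710433-115715072, - strand), a gene that KLF2 is known to activate in T cells, had 496, 546, 365 and 392 CPM in TSLPR+ST2- libraries. In TSLPR-ST2+ libraries it had 980, 568, 870 and 813 CPM. Mice 5, 7 and 8 showed a wide gap, while in mouse 6 the values were 546 and 568 CPM. Over the 4 mice it was 1.82-fold lower in TSLPR+ST2- (log2 fold change -0.86, SE 0.14, edgeR adjusted p = 0.0066). Of the 17 genes on a list of naive and central T cell genes, Klf2 and S1pr1 fell in edgeR. None rose and the other 15 were not called. DESeq2 called 7 of the 17 lower and limma-voom 4, where over all 14861 genes they called 452 and 34 lower. The list's median log2 fold change was -0.44, against 0.04 for all genes, and 14 of its 17 values were negative. Tcf7 and Lef1, the transcription factors of resting T cells, did not pass in edgeR. Tcf7 had 390 to 493 CPM in TSLPR+ST2- and 540 to 880 CPM in TSLPR-ST2+ libraries (edgeR adjusted p = 0.079), and Lef1 had 287 to 297 CPM in TSLPR+ST2- and 338 to 504 CPM in TSLPR-ST2+ libraries (edgeR adjusted p = 0.0797). Libraries that do not overlap in this way are no rarity in this comparison: 405 of all genes tested had all TSLPR+ST2- libraries above (2.73%) and 331 had them below (2.23%).

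RefSeq promoter windows of Itgb1, Itgb7 and Klf2 are shown because these genes were called lower in TSLPR+ST2- cells and Klf2 encodes a factor that binds CACCC boxes. They did not move together across all 4 gates. In double-positive against double-negative cells, Itgb1 was higher (log2 fold change 1.075), while Klf2 (-0.94) and Itgb7 (-0.44) were lower. Whether KLF2 acts on these genes was not tested. The source had no window for S1pr1. Each window runs from 250 bases before to 50 bases after the gene's start in GRCm38.p6, read 5′ to 3′ on the gene's strand, with capitals marking CACCC or its reverse complement GGGTG, the box that Krüppel-like factors bind. The windows are chr8:128685404-128685703 for Itgb1, chr15:102231886-102232185 for Itgb7 and chr8:72318812-72319111 for Klf2.
Itgb1: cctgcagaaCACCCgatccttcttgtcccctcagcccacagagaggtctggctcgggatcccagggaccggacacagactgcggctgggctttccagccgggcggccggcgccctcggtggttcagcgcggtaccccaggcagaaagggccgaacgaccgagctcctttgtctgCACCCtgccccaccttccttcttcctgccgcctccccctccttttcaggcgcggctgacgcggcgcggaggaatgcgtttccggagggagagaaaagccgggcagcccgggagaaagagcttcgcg
Itgb7: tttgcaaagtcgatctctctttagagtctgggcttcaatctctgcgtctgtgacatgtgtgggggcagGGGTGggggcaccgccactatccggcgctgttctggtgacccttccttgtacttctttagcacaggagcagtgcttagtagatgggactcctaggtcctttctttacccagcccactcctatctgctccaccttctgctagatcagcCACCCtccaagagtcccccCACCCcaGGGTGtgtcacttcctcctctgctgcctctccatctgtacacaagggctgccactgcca
Klf2: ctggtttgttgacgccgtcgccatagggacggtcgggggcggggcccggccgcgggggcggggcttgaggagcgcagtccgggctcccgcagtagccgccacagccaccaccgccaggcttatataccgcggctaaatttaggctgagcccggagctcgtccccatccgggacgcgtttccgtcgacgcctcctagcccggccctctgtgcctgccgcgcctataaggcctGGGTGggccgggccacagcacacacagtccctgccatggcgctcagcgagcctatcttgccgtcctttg
The Itgb1 window holds 2 such matches, that of Itgb7 4 and that of Klf2 1. The box is common, being in 57.5% of 32851 promoter windows of the same length, and was in 6 of 11 windows of the called genes that were higher and in 11 of 16 of those that were lower, counting the first window listed for a gene. A match is a string of letters and not a bound site.

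Il1rl1 has 2 windows in the same source, chr1:40429320-40429619 and chr1:40439379-40439678, both on the + strand. They are shown for 1 form of the GATA motif, since the study sorts on ST2 and Gata3 is the factor known from ST2+ Treg. Capitals mark that form, AGATAA, or its reverse complement TTATCT.
Il1rl1 upstream: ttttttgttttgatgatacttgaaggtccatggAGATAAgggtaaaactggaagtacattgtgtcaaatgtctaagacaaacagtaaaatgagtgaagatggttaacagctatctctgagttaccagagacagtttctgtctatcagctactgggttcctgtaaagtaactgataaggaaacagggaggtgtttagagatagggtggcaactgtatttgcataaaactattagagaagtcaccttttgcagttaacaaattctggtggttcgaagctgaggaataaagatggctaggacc
Il1rl1 downstream: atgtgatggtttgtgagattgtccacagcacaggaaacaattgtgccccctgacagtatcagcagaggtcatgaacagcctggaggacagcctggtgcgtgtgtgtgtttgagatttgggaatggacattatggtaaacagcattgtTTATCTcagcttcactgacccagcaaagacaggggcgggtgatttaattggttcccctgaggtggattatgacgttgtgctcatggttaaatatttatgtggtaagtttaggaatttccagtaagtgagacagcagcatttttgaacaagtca
Each Il1rl1 window holds 1 match to this string, which is in 11.2% of all promoter windows, and the windows of Itgb1, Itgb7 and Klf2 hold 0. Other strings with gata or its reverse complement tatc were not counted. Among these are ctatct in the Itgb7 and Klf2 windows and tgataa in the upstream Il1rl1 window. The counts thus depend on the string chosen. Gata3 itself had 70.8, 113, 72.6 and 46.1 CPM in TSLPR+ST2- libraries, against 146, 84.8, 146 and 148 CPM in TSLPR-ST2+ libraries. It was lower in TSLPR+ST2- cells of mice 5, 7 and 8 and higher in those of mouse 6, and it did not pass the test (log2 fold change -0.78, SE 0.25, edgeR adjusted p = 0.197).

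**Figure D2:**
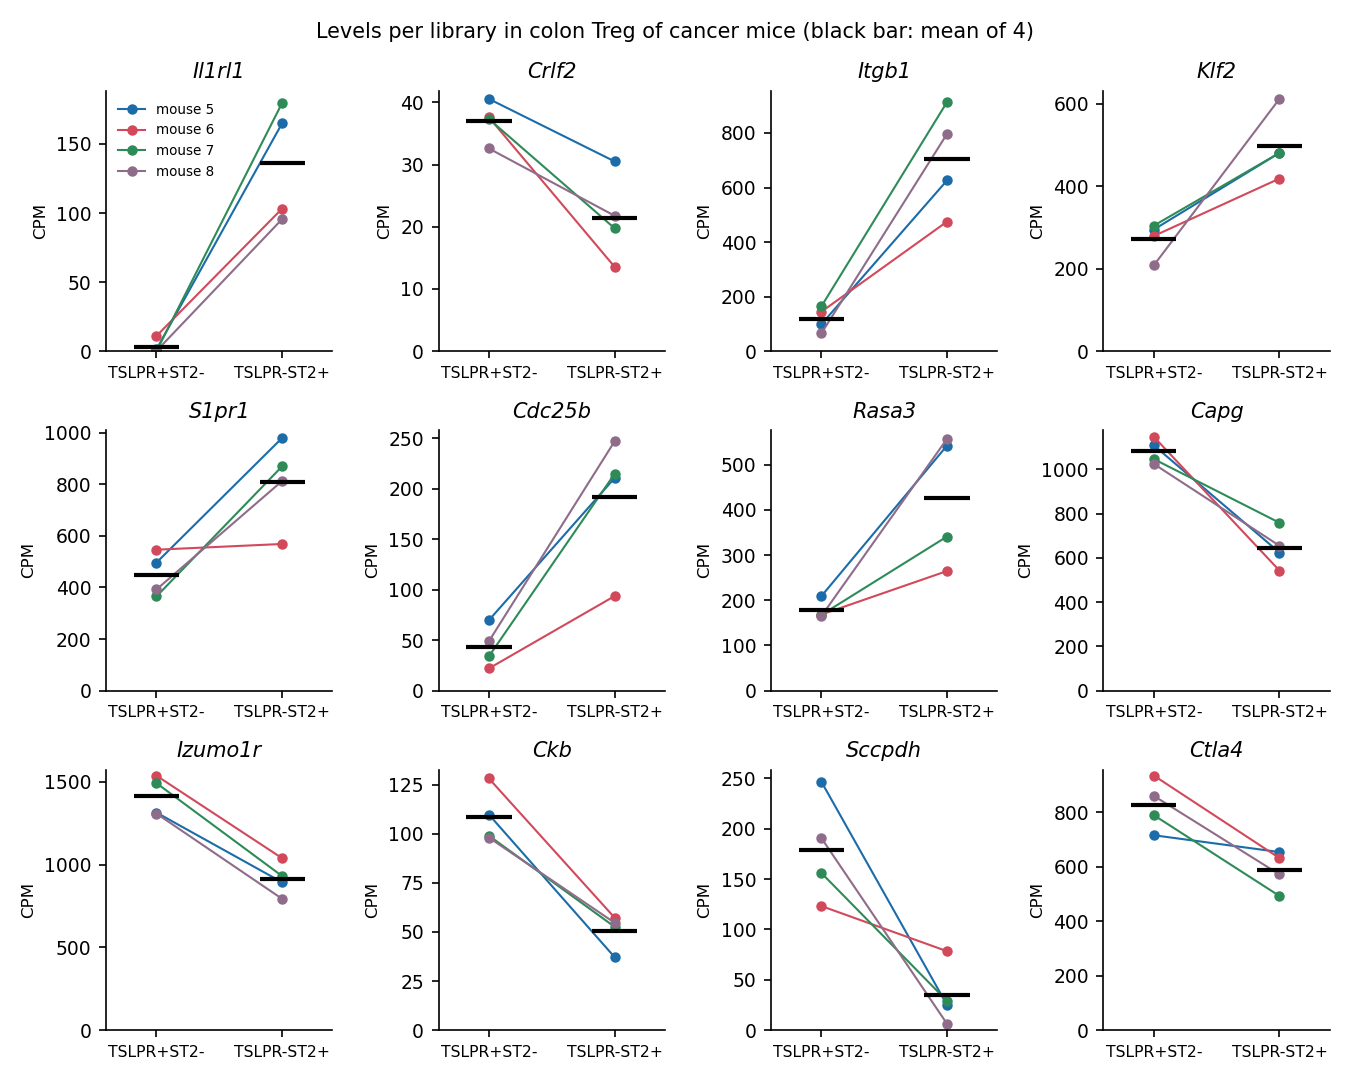
CPM of 12 genes (y axis, from 0) in TSLPR+ST2- (left) and TSLPR-ST2+ (right) Treg of cancer mice, with a line for each of mice 5 to 8 and a black bar at the mean of 4 libraries. Itgb1 averaged 118 CPM in TSLPR+ST2- and 703 CPM in TSLPR-ST2+ libraries, and the S1pr1 line of mouse 6 is nearly flat.

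Among genes of Treg identity, edgeR called 3 of the 13 on the core list higher in TSLPR+ST2- cells, none lower and 10 not at all, with a median log2 fold change of 0.23, while DESeq2 called 4 higher (Il2ra in addition) and 1 lower. Capg (chr6:72544391-72562983, + strand) had 1109, 1148, 1047 and 1025 CPM in TSLPR+ST2- libraries, against 624, 543, 759 and 655 CPM in TSLPR-ST2+ libraries. The gates were well apart, and the difference was 1.69-fold (log2 fold change 0.75, SE 0.09, edgeR adjusted p = 8.44e-05). Izumo1r (chr9:14885814-14903949, - strand) had 1315, 1538, 1493 and 1309 CPM in TSLPR+ST2- libraries, against 894, 1039, 931 and 793 CPM in TSLPR-ST2+ libraries. It too did not overlap, at 1.55-fold (log2 fold change 0.63, SE 0.11, edgeR adjusted p = 0.0154). Ctla4 (chr1:60887000-60915832, + strand) had 716, 935, 790 and 861 CPM in TSLPR+ST2- libraries, against 654, 632, 493 and 572 CPM in TSLPR-ST2+ libraries. The gap between the gates was small, the call was at the limit (1.4-fold, log2 fold change 0.49, SE 0.10, edgeR adjusted p = 0.0479), and it was lost without any one of mice 1, 2, 4, 6, 7 and 8. Il2ra, the interleukin-2 receptor alpha chain CD25, did not pass in edgeR. It had 402 to 507 CPM in TSLPR+ST2- and 210 to 365 CPM in TSLPR-ST2+ libraries (log2 fold change 0.59, edgeR adjusted p = 0.0797).

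The other genes that rose have no place on the Treg core list. Sccpdh (chr1:179668210-179687189, + strand), which encodes a saccharopine dehydrogenase-like protein, had 247, 123, 156 and 191 CPM in TSLPR+ST2- libraries, against 25, 78.4, 29.0 and 6.34 CPM in TSLPR-ST2+ libraries. The difference was 6.00-fold (log2 fold change 2.59, SE 0.49, edgeR adjusted p = 0.0202), with mouse 6 closest together. Ckb (chr12:111669361-111672338, - strand), the brain-type creatine kinase, had 110, 128, 99.0 and 98.1 CPM in TSLPR+ST2- libraries, against 37.2, 57.3, 52.6 and 54.7 CPM in TSLPR-ST2+ libraries. It was 2.18-fold higher with no overlap (edgeR adjusted p = 0.0184). Ephx1 (chr1:180976210-181020904, - strand), the microsomal epoxide hydrolase that detoxifies reactive epoxides, had 548, 560, 444 and 447 CPM in TSLPR+ST2- libraries, against 355, 341, 269 and 225 CPM in TSLPR-ST2+ libraries. It was 1.68-fold higher (log2 fold change 0.75, SE 0.14, edgeR adjusted p = 0.0184).

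Nfil3, a basic leucine zipper factor of lymphocytes, had 125, 96.4, 53.6 and 93.9 CPM in TSLPR+ST2- libraries, against 29.7, 68.7, 35.2 and 20.7 CPM in TSLPR-ST2+ libraries. It was higher in TSLPR+ST2- in each mouse, although the gates overlapped (2.59-fold, edgeR adjusted p = 0.0238). Gapdh, the glycolytic enzyme often used as a reference transcript, had 720 to 845 CPM in TSLPR+ST2- and 535 to 602 CPM in TSLPR-ST2+ libraries, a 1.36-fold rise (edgeR adjusted p = 0.0184). AW112010, annotated as a long noncoding RNA, had 1148 to 1291 CPM in TSLPR+ST2- and 723 to 978 CPM in TSLPR-ST2+ libraries, a 1.45-fold rise (edgeR adjusted p = 0.0184). Zfp763, a zinc finger gene, was called at 9.41-fold (edgeR adjusted p = 0.0266) on low values. It had 24.0, 12.3, 40.4 and 28.2 CPM in TSLPR+ST2- libraries, against 0.268, 13.4, 3.17 and 1.65 CPM in TSLPR-ST2+ libraries, so mouse 6 went the other way. Zinc finger genes of this kind have near-identical relatives, and reads could have been split among them. The 12 higher genes also include 2010111I01Rik and Tmed1, which fall outside the rule for named genes and are given because the count is small. 2010111I01Rik had 335 to 376 CPM in TSLPR+ST2- and 206 to 294 CPM in TSLPR-ST2+ libraries (1.46-fold, edgeR adjusted p = 0.0479). Tmed1, which encodes a protein of the secretory pathway, had 4 to 107 counts in each TSLPR+ST2- library and 0 in each TSLPR-ST2+ library. The mean of the TSLPR+ST2- libraries was at least 14.4 times a floor of 3 counts per library (edgeR adjusted p = 0.0266). The mouse 6 library, at 0.657 CPM, was near that floor of up to 0.556 CPM. The call was lost without any one of mice 1, 3, 4, 5, 7 and 8.

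Beyond the integrins, Klf2, S1pr1 and Il1rl1, 13 more genes fell in TSLPR+ST2- cells. All had 4 TSLPR+ST2- libraries below all 4 TSLPR-ST2+ libraries, as 331 of 14861 genes tested did (2.23%). The calls come from these same libraries, so the separation adds no support to them. Cdc25b (chr2:131186949-131198497, + strand), a phosphatase that activates cyclin-dependent kinases, had 69.7, 22, 34.0 and 48.9 CPM in TSLPR+ST2- libraries, against 210, 93.6, 215 and 247 CPM in TSLPR-ST2+ libraries. It was 4.41-fold lower (log2 fold change -2.14, SE 0.31, edgeR adjusted p = 0.0014). Rasa3 (chr8:13566948-13677603, - strand), a GTPase-activating protein that switches off Ras and Rap, had 209, 168, 168 and 165 CPM in TSLPR+ST2- libraries, against 542, 265, 341 and 557 CPM in TSLPR-ST2+ libraries. Its difference was 2.36-fold (log2 fold change -1.24, SE 0.18, edgeR adjusted p = 0.0014), and mouse 6 had the smallest gap. Rsad2 (chr12:26442746-26456452, - strand), the interferon-inducible antiviral enzyme viperin, had 19.7, 40.2, 7.40 and 25.9 CPM in TSLPR+ST2- libraries, against 95.4, 110, 74.0 and 86.2 CPM in TSLPR-ST2+ libraries. It was 4.10-fold lower (log2 fold change -2.04, SE 0.36, edgeR adjusted p = 0.0184).

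Rsad2 was the only one of 19 interferon response genes that edgeR, DESeq2 or limma-voom called, with a list median of -0.20. Mx1, another antiviral gene, did not pass, with 19.2 to 39.2 CPM in TSLPR+ST2- and 43.3 to 79.6 CPM in TSLPR-ST2+ libraries (edgeR adjusted p = 0.33). Rfk, riboflavin kinase, had 66.5 to 115 CPM in TSLPR+ST2- and 178 to 301 CPM in TSLPR-ST2+ libraries, a 2.65-fold fall (edgeR adjusted p = 0.0266). Rnf125, a ubiquitin ligase of antiviral signalling, had 33.3 to 57.5 CPM in TSLPR+ST2- and 73.9 to 128 CPM in TSLPR-ST2+ libraries, a 2.41-fold fall (edgeR adjusted p = 0.0266). Naa60, an acetyltransferase of the Golgi, had 32.1 to 56.8 CPM in TSLPR+ST2- and 85.7 to 108 CPM in TSLPR-ST2+ libraries, 1.90-fold lower (edgeR adjusted p = 0.0208). Ppp2r5a, a regulatory subunit of protein phosphatase PP2A, was 1.64-fold lower, Atp1b3, a beta subunit of the sodium-potassium pump, 1.42-fold, Ablim1, an actin-binding LIM protein, 1.59-fold, and Ripor2, an inhibitor of RhoA, 1.58-fold. For these 4 the edgeR adjusted p was 0.0184, 0.0184, 0.0205 and 0.0266. Outside the naming rule, Znrf2 (1.84-fold lower), Fam107b (1.53-fold lower) and Sh3kbp1 (1.39-fold lower) complete the 18, with edgeR adjusted p of 0.046, 0.046 and 0.0479.

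The double-positive and double-negative libraries of the same 4 mice show in which gates a gene was high. They are not on either side of the contrast above, but they share its fit and so helped set the spread and the mouse terms behind the 30 calls. The 2 gates also differed in markers of other cells. Macrophage and dendritic markers summed to 2924 to 6680 CPM in double-positive and 250 to 425 CPM in double-negative libraries. B and plasma cell markers summed to 2268 to 3448 and 855 to 1272 CPM. Epithelial markers summed to 14534 CPM in the mouse 7 double-positive library. Foxp3 was 2.03-fold lower in double-positive cells (edgeR adjusted p = 0.0026). The part of this in the calls was not tested. Between the 2 gates, 1141 of 14861 genes were called (7.68%), 616 higher in double-positive cells (4.15%) and 525 lower (3.53%). Of the 30 genes, 10 were higher in double-positive than in double-negative cells, 7 were lower and 13 were not called. The 18 genes that fell in TSLPR+ST2- split into 5 that were higher in double-positive cells, 7 that were lower there and 6 not called.

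Itgb1, Il1rl1, Rsad2, Rfk and Rnf125, the 5 that were higher, had higher means in the 2 ST2+ gates than in the 2 ST2- gates. Itgb1 had 343, 270, 259 and 343 CPM in double-positive libraries, against 138, 95.1, 138 and 218 CPM in double-negative libraries (2.11-fold, edgeR adjusted p = 0.0115). So the order of Itgb1 means was TSLPR-ST2+ at 703, double-positive at 304, double-negative at 147 and TSLPR+ST2- at 118 CPM, and the lowest 2 gates overlapped. Rsad2 had 48.8 to 104 CPM in double-positive and 12.7 to 31.0 CPM in double-negative libraries (4.11-fold, edgeR adjusted p = 0.00104). For Rfk (edgeR adjusted p = 0.0307), the double-positive library of mouse 7 was at 441 CPM and the other 3 at 107 to 128 CPM. Those 3 were nearer to the double-negative libraries (81.1 to 98.2 CPM) than to the TSLPR-ST2+ libraries (178 to 301 CPM). The mouse 7 library is the one with the high epithelial sum.

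The 7 that were lower in double-positive than in double-negative cells were Klf2, S1pr1, Rasa3, Ablim1, Ripor2, Atp1b3 and Itgb7. Klf2 had 238, 210, 223 and 241 CPM in double-positive libraries, against 481, 449, 434 and 384 CPM in double-negative libraries (1.92-fold, edgeR adjusted p = 2.47e-05). S1pr1 had 326, 425, 283 and 390 CPM in double-positive libraries, against 889, 964, 744 and 858 CPM in double-negative libraries (2.43-fold, edgeR adjusted p = 3.58e-06). In both genes the 2 TSLPR+ gates were thus low and the 2 TSLPR- gates high, whatever their ST2. Capg, AW112010, Ctla4, Gapdh and Nfil3 had the converse order, with the 2 TSLPR+ gates high. Capg had 1006 to 1362 CPM in double-positive and 584 to 708 CPM in double-negative libraries (1.77-fold, edgeR adjusted p = 2.04e-06).

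The other 7 genes that rose in TSLPR+ST2- cells were not called between the double-positive and the double-negative gate. For Izumo1r, Ckb, Sccpdh, Ephx1 and 2010111I01Rik the mean was highest in TSLPR+ST2- and lowest in TSLPR-ST2+ cells, with the 2 remaining gates between. Taking genes called in the first comparison and not in the second favours that order. Zfp763 had its highest mean in double-negative libraries (31.65 CPM, against 26.22 CPM in TSLPR+ST2-). Tmed1 had its highest mean in double-positive libraries (8.96 CPM, against 7.765 CPM in TSLPR+ST2-). Sccpdh averaged 179 ± 52.8 CPM in TSLPR+ST2- and 34.7 ± 30.8 CPM in TSLPR-ST2+ libraries, while double-positive libraries averaged 66.7 ± 24.9 and double-negative ones 55.0 ± 15.4 CPM (SD, n = 4 each). The double-positive cells differed from the double-negative ones in Sccpdh by 1.12-fold (edgeR adjusted p = 0.894).

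**Figure D3:**
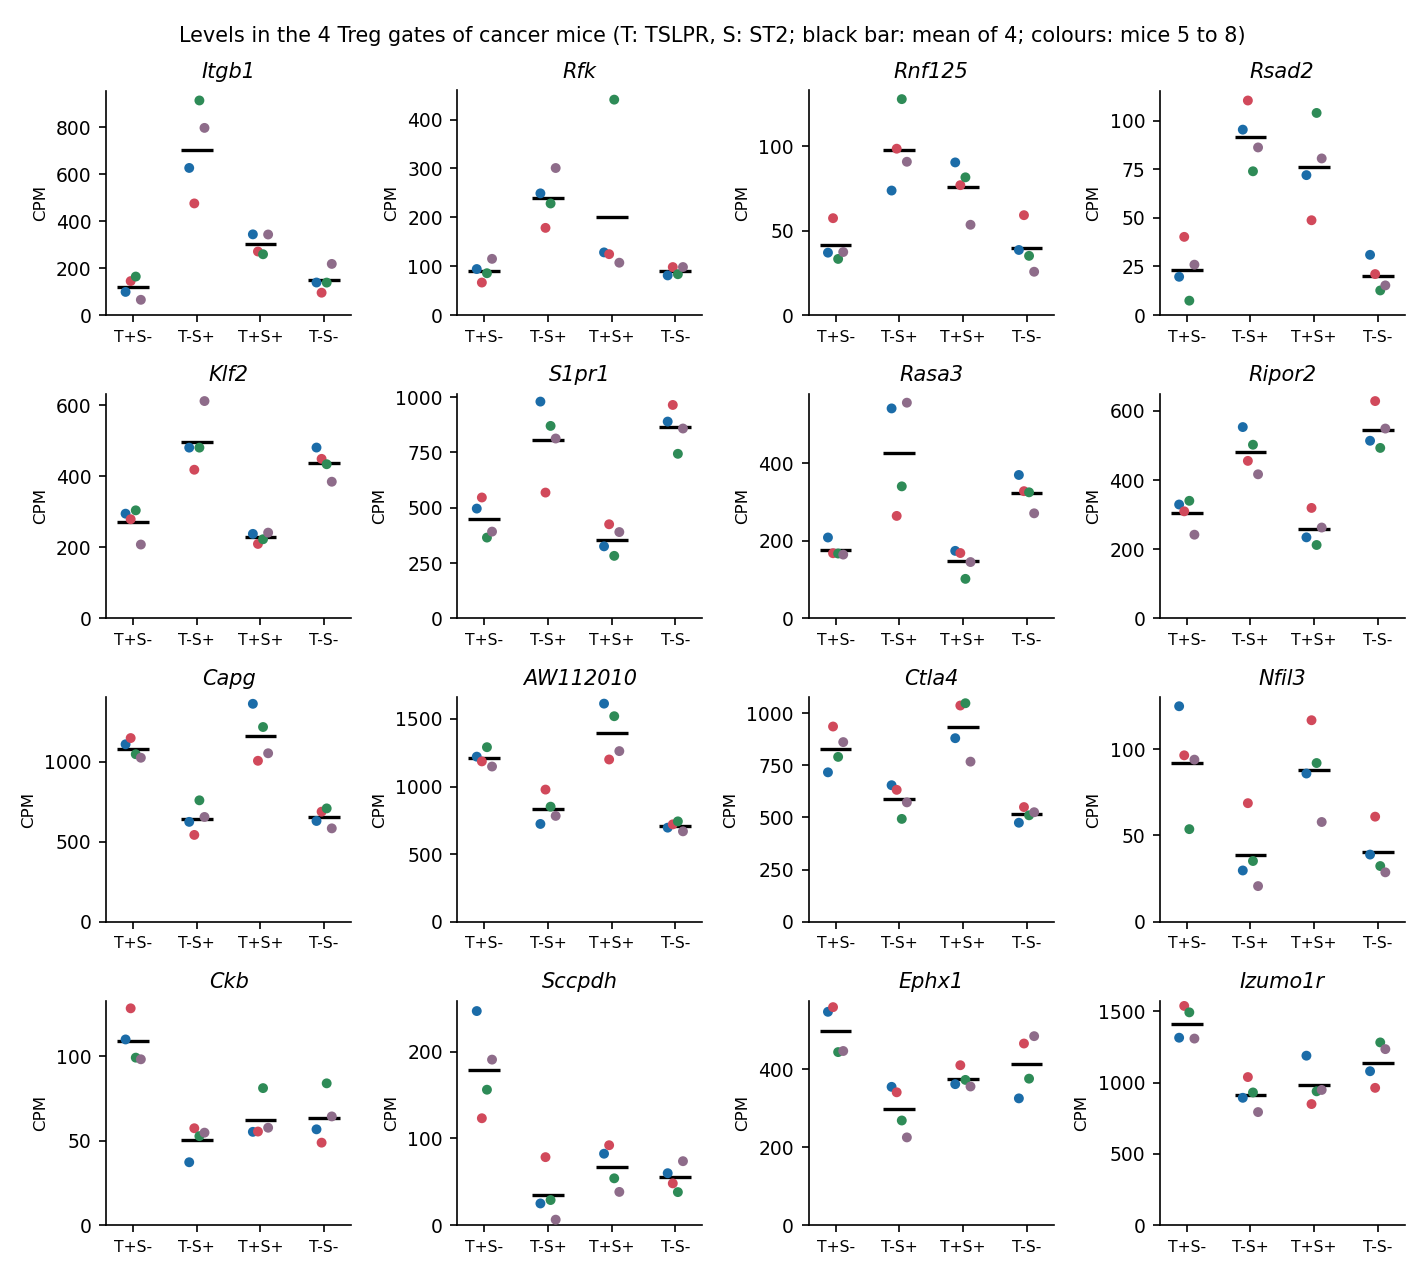
CPM of 16 called genes (y axis, from 0) in the 4 Treg gates of cancer mice, from left the TSLPR+ST2- and the TSLPR-ST2+ gate, then the double-positive (T+S+) and the double-negative (T-S-) gate. Points are libraries of mice 5 to 8 and black bars are means of 4. In the top row the means are higher in ST2+ gates, where the double-positive mean of Rfk is raised by mouse 7. The second row is low and the third row high in TSLPR+ gates, and the bottom row is highest in TSLPR+ST2-.

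The same comparison in the 4 naive mice sets other animals and other libraries against each other, within the same fit. It called 126 of 14861 genes (0.848%), 76 higher in TSLPR+ST2- (0.511%) and 50 lower (0.336%). All 30 genes had the same sign there, and 18 were called in the same direction, 10 of the 12 higher and 8 of the 18 lower. Itgb1 had 131 to 158 CPM in TSLPR+ST2- and 375 to 627 CPM in TSLPR-ST2+ libraries of naive mice (3.54-fold lower, edgeR adjusted p = 0.000662). Klf2 was 1.82-fold lower (edgeR adjusted p = 0.000508), S1pr1 1.82-fold lower (edgeR adjusted p = 0.00192), Capg 1.98-fold higher (edgeR adjusted p = 1.13e-06) and Sccpdh 7.01-fold higher (edgeR adjusted p = 0.00295).

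The 12 genes not called in naive mice include Cdc25b, Rsad2, Itgb7 and Naa60. Cdc25b had 52.0 to 94.5 CPM in TSLPR+ST2- and 97.3 to 215 CPM in TSLPR-ST2+ libraries of naive mice (edgeR adjusted p = 0.182). Rsad2 had 54.2 to 96.5 CPM in TSLPR+ST2- and 79.9 to 149 CPM in TSLPR-ST2+ libraries of naive mice, which overlap (edgeR adjusted p = 0.572). The change of the gate difference between cancer and naive mice was tested directly, and edgeR called 0 of 14861 genes, with 712 at an unadjusted p under 0.05. DESeq2 called 469 and limma-voom 0. Of the 30 genes, 6 had an unadjusted p under 0.05 in this test, namely Tmed1, Zfp763, Naa60, Cdc25b, Rsad2 and Gapdh, and each had an edgeR adjusted p of 1.

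**Figure D4:**
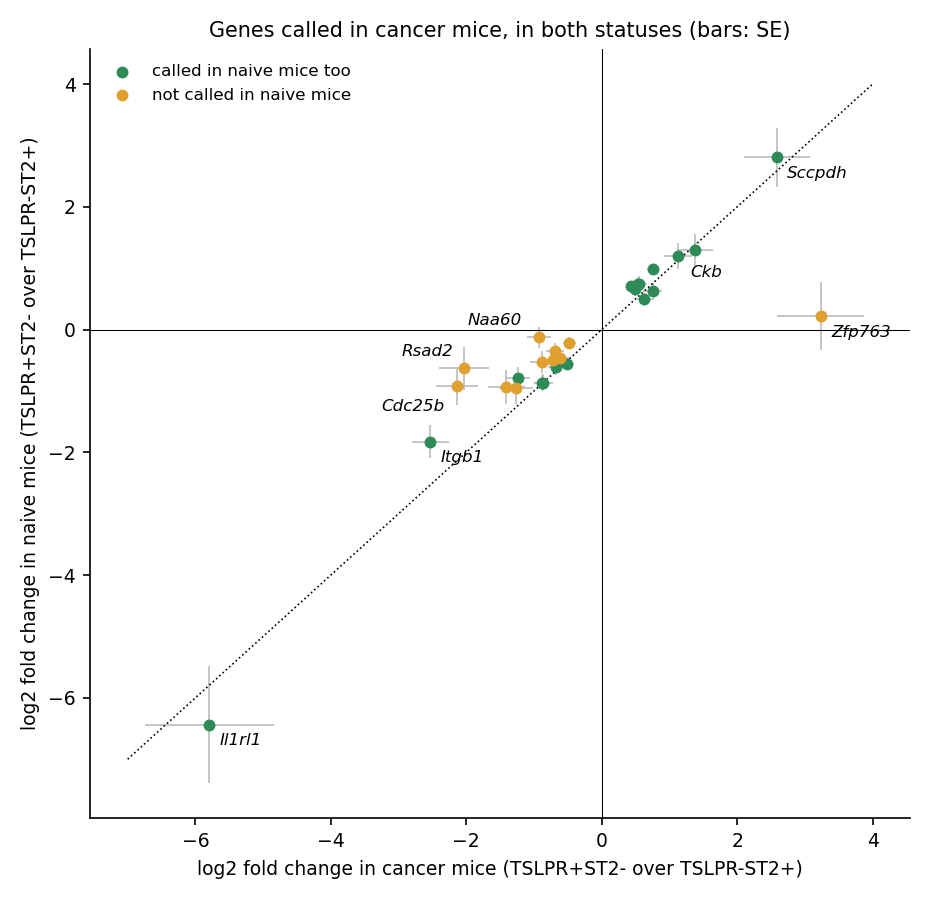
Log2 fold change of TSLPR+ST2- over TSLPR-ST2+ in naive mice (y axis) against that in cancer mice (x axis) for the called genes other than Tmed1, whose fold change is not bounded. Bars are SE, the dotted line marks equal values, green points were called in naive mice too and orange points were not. All points lie in the quadrants of equal sign, with Zfp763, Cdc25b, Rsad2 and Naa60 closer to 0 in naive mice.

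Of 21 genes of TSLP and interleukin-33 signalling, Il1rl1 fell and 20 were not called by edgeR (median log2 fold change -0.28), while DESeq2 called Il1rl1, Crlf2, Il7r, Jak1 and Socs2. Il7r, the partner chain of TSLPR, had 294, 337, 377 and 288 CPM in TSLPR+ST2- libraries, against 351, 536, 536 and 525 CPM in TSLPR-ST2+ libraries. It was lower in TSLPR+ST2- in each mouse but did not pass (log2 fold change -0.59, SE 0.17, edgeR adjusted p = 0.133). Jak1, the kinase of common-chain and TSLP receptors, had 708 to 886 CPM in TSLPR+ST2- and 917 to 1120 CPM in TSLPR-ST2+ libraries (edgeR adjusted p = 0.181). Socs2, a STAT5-induced feedback inhibitor, had 97.5 to 155 CPM in TSLPR+ST2- and 58.3 to 89.8 CPM in TSLPR-ST2+ libraries (edgeR adjusted p = 0.158).

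Of 17 genes of the ST2 and GATA3 tissue Treg list, Nfil3 rose, Il1rl1 fell and 15 were not called by edgeR, with a median of 0.23. On this list DESeq2 also called Batf higher and Gata3 lower, and limma-voom also called 1 more lower. Il10, the suppressive cytokine, had 26.4 to 65.0 CPM in TSLPR+ST2- libraries and between 0.134 and 38.3 CPM in TSLPR-ST2+ libraries (edgeR adjusted p = 0.586).

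Of 12 TNF receptor and CD28 family genes edgeR called 0, with 6 at an unadjusted p under 0.05, where DESeq2 called 5 and limma-voom 1, Icos. Icos, which sustains effector Treg, had 936, 912, 948 and 900 CPM in TSLPR+ST2- libraries, against 460, 710, 600 and 468 CPM in TSLPR-ST2+ libraries (log2 fold change 0.73, SE 0.16, edgeR adjusted p = 0.0548). Tnfrsf4, or OX40, had 929 to 1158 CPM in TSLPR+ST2- and 721 to 760 CPM in TSLPR-ST2+ libraries (edgeR adjusted p = 0.117). Of 14 tested inhibitory receptors and ectoenzymes, Ctla4 rose and 13 were not called by edgeR (median 0.42), while DESeq2 called 5 higher (Ctla4, Lag3, Nt5e and Tigit among them) and 1 lower (Cd200r1), and limma-voom called 2 higher and 2 lower. Lag3, which binds MHC class II, had 33.3, 12.8, 21.7 and 20.5 CPM in TSLPR+ST2- libraries, against 6.29, 1.45, 3.32 and 1.38 CPM in TSLPR-ST2+ libraries (8.58-fold, edgeR adjusted p = 0.0797). Tigit had 136 to 201 CPM in TSLPR+ST2- and 58.5 to 101 CPM in TSLPR-ST2+ libraries (edgeR adjusted p = 0.133). Cd200r1 had 40.1 to 66.7 CPM in TSLPR+ST2- and 68.0 to 126 CPM in TSLPR-ST2+ libraries (edgeR adjusted p = 0.0857), and mouse 6 gave the closest values.

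Among 28 homing receptors and integrins, Itgb1, S1pr1 and Itgb7 fell, none rose and 25 were not called by edgeR (median -0.09), while DESeq2 called 8 lower and 1 higher. In the glycolysis list of 15 genes Gapdh rose and 14 were not called by edgeR (median 0.05), while DESeq2 also called Tpi1 higher and Slc2a1 lower. Among those not called by edgeR was Slc2a1, the glucose transporter, with 14.4 to 72.6 CPM in TSLPR+ST2- and 68.9 to 136 CPM in TSLPR-ST2+ libraries (edgeR adjusted p = 0.213). In 18 proliferation genes edgeR called 0 and 16 had a positive log2 fold change (median 0.70), with 4 at an unadjusted p under 0.05, and DESeq2 and limma-voom called 0 too. The replication helicase gene Mcm2 had 109 to 141 CPM in TSLPR+ST2- and 56.1 to 112 CPM in TSLPR-ST2+ libraries (edgeR adjusted p = 0.271). Of the lists not yet given, edgeR called 0 of 13 interleukin-2 and STAT5 targets (4 at an unadjusted p under 0.05, 2 called by DESeq2), 0 of 17 suppressive and repair products (4 and 2), 0 of 13 AP-1 and BATF factors (3 and 2) and 0 of 18 S100, annexin and motility genes (4 and 2), and limma-voom called 0 in each of these. It called 0 of 16 genes of T cell receptor activation (0 at an unadjusted p under 0.05), 0 of 12 heat shock genes (1), 0 of 17 cholesterol synthesis genes (1) and 0 of 5 helper cytokine genes (0), and DESeq2 and limma-voom called 0 in these too. Cytosolic ribosomal protein genes had 76 of 78 positive values and a median of 0.18. edgeR called 0 of them. At an unadjusted p under 0.05 in edgeR, 8 of the 78 were higher and 0 lower, where 832 of all 14861 genes were higher and 866 lower.

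**Figure D5:**
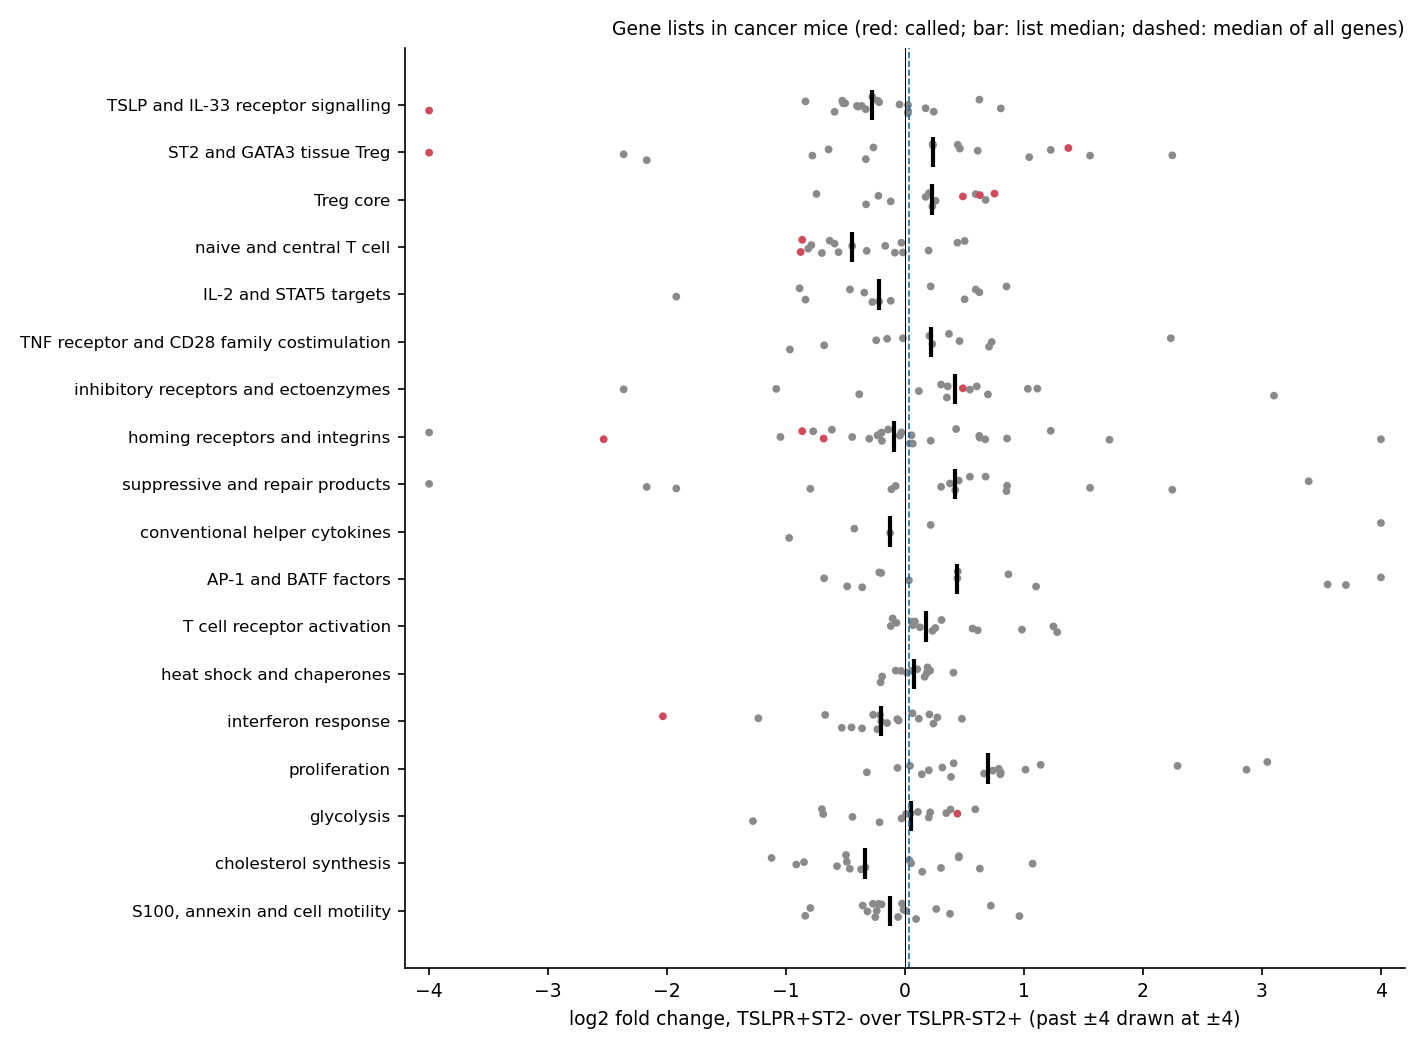
Log2 fold change of TSLPR+ST2- over TSLPR-ST2+ in cancer mice (x axis, values past 4 in size drawn at 4) of the tested members of 18 gene lists (rows). Red points are called genes, black bars list medians and the dashed line the median of all genes, 0.04. The proliferation list has the median farthest to the right and the naive and central T cell list the one farthest to the left.

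Totals were 5759266 to 6531701 counts in TSLPR+ST2- and 5391026 to 7589967 counts in TSLPR-ST2+ libraries. Several library measures moved with the gate. Mitochondrial genes took 1.46 to 1.96% of counts in TSLPR+ST2- and 0.958 to 1.64% in TSLPR-ST2+ libraries, higher in TSLPR+ST2- in 3 of 4 mice, and with this share as a covariate, an alternative chosen after seeing the data, edgeR called 10 genes, all among the 30. These were 2 of the 12 higher genes (Capg and Ephx1) and 8 of the 18 lower ones, so that Izumo1r, Ctla4, Sccpdh, Ckb, Nfil3, Gapdh and AW112010 were no longer called. The 9 B and plasma cell markers, all tested and none at 0 in all 8 libraries, summed to 1729 to 2301 CPM in TSLPR+ST2- and 1396 to 1631 CPM in TSLPR-ST2+ libraries, higher in 4 of 4 mice. Most of that sum was Ighm, with means of 1623 CPM in TSLPR+ST2- and 1458 CPM in TSLPR-ST2+ libraries. Over the 9 markers the median log2 fold change was 1.34, with 8 values positive and 1 negative. edgeR and limma-voom called 0 of the 9, and 3 were higher at an unadjusted p under 0.05 in edgeR. DESeq2 called Cd79b and Mzb1 higher. Of the 7 mast cell markers 2 were tested and 5 were at 0 in all 8 libraries (Mcpt1, Mcpt2, Tpsb2, Fcer1a and Ms4a2), with a sum of 5.05 to 16.7 CPM in TSLPR+ST2- and 0.742 to 2.86 CPM in TSLPR-ST2+ libraries. Of the 8 markers of ILC2, innate lymphoid cells that carry ST2, 5 were tested and 2 (Il13 and Calca) were at 0 in all 8 libraries, with a sum of 5.04 to 32 CPM in TSLPR+ST2- and 31.2 to 58.8 CPM in TSLPR-ST2+ libraries. That sum rests mainly on 1 gene, Il9r, and 2 of the 5 tested markers had positive log2 fold changes. Il9r had 14.1, 8.37, 4.2 and 0 CPM in TSLPR+ST2- libraries, against 38.0, 41.8, 50.8 and 24.3 CPM in TSLPR-ST2+ libraries (edgeR adjusted p = 0.242). It was also high in the other ST2+ gate, with 22.1 to 37.1 CPM in double-positive libraries and 0 in each double-negative library (edgeR adjusted p = 0.000498). Each of these 3 sums moved the same way in all 4 mice. An exact paired permutation test then gives a two-sided p of 0.125, the smallest that 4 pairs allow. They are given because, of 8 marker sums, only they did so. The macrophage and dendritic sum was 1020 to 3539 CPM in TSLPR+ST2- and 904 to 2801 CPM in TSLPR-ST2+ libraries, higher in 3 of 4 mice. The epithelial sum was higher in 3 of 4 mice, the neutrophil and the CD8, NK and gamma-delta T cell sums lower in 3 of 4. The stromal and endothelial sum was split 2 to 2. The part of these cells and of the mitochondrial share in the results was not tested. In bulk libraries, fewer cells of a type and less RNA per cell cannot be told apart.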

How the data were processed

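RNA of sorted Treg was read as 58-base single reads from SMART-Seq v4 and Nextera XT libraries, per the labels' protocols. The deposited values are raw counts per gene, 53465 Ensembl genes of which 53274 have a symbol, in 33 columns that each matched 1 library. The submitters' processing notes name HTSeq 0.4.1, Picard 1.134, FastQC 0.11.3, SAMtools 1.2 and GRCm38. The aligner, the gene annotation and any use of strand in counting were not given in the sources used here, so reads of overlapping and antisense genes cannot be told apart. Positions come from GENCODE M21 (GRCm38), promoter windows from RefSeq (GRCm38.p6).

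All 32 Treg libraries entered 1 edgeR 4.0.16 quasi-likelihood fit (R 4.3.3) with a term for each mouse and for each gate within a status, TMM scaling, filterByExpr (minimum count 10, minimum total 15), a robust fit, Benjamini-Hochberg adjustment over 14861 genes and a limit of 0.05. Genes past it are called. The Foxp3-negative library was not used. Libraries of a mouse share the animal by the labels' mouse number, which is the pairing. Their deviations from the gate means correlated at a mean of -0.0034 over 4 pairs of the same mouse (-0.0421 to 0.0203). The mean was 0.00114 over 12 pairs of different mice (-0.0267 to 0.042). By this measure libraries of the same mouse were no more alike than those of different mice. Fold changes are model estimates and ± is the SD over libraries. Total counts of Treg libraries ran from 4038718 to 8839946. No 2 libraries agreed within sampling noise (the lowest chi-square per degree of freedom was 12.7 over 528 pairs).

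Named are Foxp3, Crlf2 and Il1rl1, up to 15 called genes each way by smallest p with at least 10 CPM in the higher gate, leaving out genes without an official name, pseudogenes, and mitochondrial, ribosomal protein, immunoglobulin and TCR genes, and up to 4 genes per list by smallest p. Some genes and 1 list that this picks are not reported here. The comparison, the 27 gene lists (19 of pathways, 8 of cell markers) and the tests were chosen with earlier results of these data known. Lists are described by counts and medians with no set test. Alternatives were a fit without the mouse, fewer libraries, RLE factors, other filters, thinned counts, DESeq2 1.42.0, limma-voom (limma 3.58.1) and each mouse left out.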

Additional observations from a re-analysis of the deposited data

Results flagged for a closer look

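In groups of 4 libraries, 1 library lay far from the other 3 in 13 of 148 groups looked at, where chance alone gives about 5%. Among the called genes, Il1rl1 was at 11 CPM in the TSLPR+ST2- library of mouse 6, against 0 to 1.33 CPM in the other 3. Rnf125 in that library was at 57.5 CPM (others 33.3 to 37.4) and Sh3kbp1 at 388 CPM (others 418 to 423). Rasa3 was at 209 CPM in TSLPR+ST2- cells of mouse 5 (others 165 to 168). Naa60 was at 108 CPM in TSLPR-ST2+ cells of mouse 8 (others 85.7 to 88.3).

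Among genes that were not called, the TSLPR+ST2- libraries gave Il10 at 65.0 CPM in mouse 8 (others 26.4 to 29.3), Mx1 at 39.2 CPM in mouse 7 (others 19.2 to 20.1) and Tpi1 at 226 CPM in mouse 8 (others 294 to 303). In TSLPR-ST2+ libraries, Gata3 was at 84.8 CPM in mouse 6 (others 146 to 148), and Il7r was at 351 CPM in mouse 5 (others 525 to 536). Slc2a1 was at 136 CPM in mouse 5 (others 68.9 to 71.0). The B cell gene Cd79a was at 25.7 CPM in mouse 6 (others 1.2 to 5.19), and the macrophage gene Lyz2 at 1641 CPM in mouse 8 (others 217 to 429).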

How the results depend on the processing

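No called gene changed sign under any alternative. The comparison of TSLPR+ST2- with TSLPR-ST2+ Treg in cancer mice, with 30 calls, gave 25 with no replicate block for the mouse (21 of them shared), 2 with the 16 cancer libraries, 0 with its own 8 libraries, 955 in DESeq2, 67 in limma-voom (27 shared), 10 with the mitochondrial share as a covariate and 14 (12 shared) without the mouse 5 TSLPR-ST2+ library; the last 2 were chosen after seeing the data. Leaving out 1 mouse gave 3 (without mouse 8) to 167 (without mouse 6). In naive mice, 126 calls became 113 with no replicate block, 26 with the 8 libraries alone, 218 with the 16 naive libraries, 827 in DESeq2 and 211 in limma-voom, and 31 (without mouse 1) to 144 (without mouse 6) with 1 mouse left out. For the change with status, DESeq2 called 469, against 0 in edgeR and under each of the other alternatives. Double-positive against double-negative cells gave 349 with the 8 libraries alone, 600 with 16, 573 with the mitochondrial share and 2647 in DESeq2 (1644 higher, 1003 lower), against 1141 (616 higher, 525 lower), and 651 (without mouse 7) to 997 (without mouse 3) with 1 mouse left out. The causes of these shifts were not tested. Depth limits genes of few counts: those under the filter's minimum count of 10 were not tested.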

Other observations

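In edgeR, several genes on the lists were called between TSLPR+ST2- and TSLPR-ST2+ Treg of naive mice but not of cancer mice. Those below were picked after their values were seen. Other tools did call some of them in cancer mice: DESeq2 called Tigit, Icos, Tnfrsf4, Lag3, Nt5e and Il7r, and limma-voom called Tigit and Icos. Tigit, an inhibitory receptor of effector Treg, had 209, 197, 104 and 140 CPM in TSLPR+ST2- libraries of naive mice 1 to 4, against 9.47, 67.4, 25.1 and 25.3 CPM in their TSLPR-ST2+ libraries (5.61-fold higher, edgeR adjusted p = 0.000196). In cancer mice Tigit had 136 to 201 CPM in TSLPR+ST2- and 58.5 to 101 CPM in TSLPR-ST2+ libraries, which did not overlap (2.045-fold higher, edgeR adjusted p = 0.133). The change of its difference with status had an unadjusted p of 0.00188 and an edgeR adjusted p of 1. Maf, a factor of interleukin-10-producing colon Treg, had 164 to 194 CPM in TSLPR+ST2- and 48.5 to 99.3 CPM in TSLPR-ST2+ libraries of naive mice (2.43-fold higher, edgeR adjusted p = 0.00125). In cancer mice Maf had 168 to 206 CPM in TSLPR+ST2- and 91.1 to 177 CPM in TSLPR-ST2+ libraries (edgeR adjusted p = 0.26). For Maf the change with status had an unadjusted p of 0.0126 and an edgeR adjusted p of 1. Icos (1.87-fold), Tnfrsf4 (1.53-fold), Lag3 (10.1-fold) and Nt5e (1.67-fold) were higher and Il7r (2.01-fold) was lower in TSLPR+ST2- cells of naive mice, with edgeR adjusted p of 0.00253 to 0.0341. None of these 5 had an unadjusted p under 0.05 for a change with status, so that they are not shown to differ between cancer and naive mice.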
